A study of Mus musculus with 19 samples.

Results

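The comparison described here is between 2 cell fractions that were sorted from the stroma of mouse hindlimb muscle, the cells that are neither blood-derived nor endothelial. LinNegSca1Pos held 3 libraries of lineage-negative cells that carried the surface protein Sca1, called a mesenchymal progenitor fraction in the labels. LinNegSca1Neg held 4 libraries of lineage-negative cells without Sca1. These are 7 of the 19 libraries of the study, taken by their column names, and all genes of the deposited table were used (23521 with a value in every library, of which 14043 were tested). All libraries came from C57BL/6J mice aged 8 weeks that had tamoxifen on 5 consecutive days, 2.5 mg each day, and then a washout of 10 days. The labels name no Cre driver or engineered allele for these samples, and they do not say whether animals were pooled or whether replicates came from separate animals. The p-values therefore measure a spread between libraries, part of which may be technical. That spread was estimated within 5 groups over all 19 libraries, not from the 7 compared libraries alone. Poly(A) RNA was sequenced from each fraction, and levels are the FPKM values that the authors deposited, a count of sequenced fragments divided by transcript length and by the size of the library.

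Skeletal muscle holds, between its fibres, a population of fibroblast-like mesenchymal cells known as fibro-adipogenic progenitors, which carry Sca1 and the receptor PDGFRα, make much of the connective tissue matrix, and can give rise to adipocytes and fibroblasts. Sca1 is the product of Ly6a, a small lipid-anchored surface protein that in mouse also marks blood stem cells and many endothelial cells. The lineage-negative cells that lack it are known to include satellite cells (the Pax7-expressing stem cells of the muscle fibre), smooth muscle cells and pericytes of the vessel wall, tendon cells, and the Schwann cells and perineurial cells of peripheral nerve. The comparison thus asks what separates one mesenchymal population from a mixture of several others, and a gene can be lower in one fraction because fewer cells there express it or because each cell holds less of its RNA. In bulk samples these cannot be told apart.

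Genes at 1 FPKM or more numbered 11862, 11547 and 11274 in Sca1-positive replicates 1 to 3, and 12480, 12517, 12232 and 12364 in Sca1-negative replicates 1 to 4. Sequencing depth was not stated. What 1 fragment was worth was estimated as the most frequent ratio, over genes, of a library's low values to those of Sca1-negative replicate 2. The estimate was 1.46, 1.41 and 4.44 in the Sca1-positive libraries, against 0.966, 1.000 (the reference itself), 1.52 and 1.46 in the Sca1-negative libraries. The most frequent ratio held 175 of 1380, 179 of 1228 and 88 of 663 genes in Sca1-positive replicates 1 to 3. In Sca1-negative replicates 1, 3 and 4 it held 251 of 1730, 126 of 1195 and 94 of 1095 genes. By this indirect estimate Sca1-positive replicate 3 was the shallowest, and low values in it are the least precise. Across genes, replicates correlated with a Spearman's rho of 0.952 to 0.969 within the Sca1-positive and 0.923 to 0.978 within the Sca1-negative fraction, and no 2 columns held identical values. Among the Sca1-negative libraries, replicates 1 and 2 deviated from the group mean together, as did replicates 3 and 4, and this split is described with the results it touches. A value of 0.001 is the lowest in every column and stands for a gene listed at or near 0.

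The gate gene and the markers of the cell types went with the labels. A log2 difference is Sca1-positive minus Sca1-negative, given with its standard error (SE). Ly6a (mm10, chromosome 15, 74994877 to 74998031) was at 1847, 1469.7 and 1978 FPKM in Sca1-positive and 35.8, 50.4, 65.3 and 55.3 FPKM in Sca1-negative libraries (log2 difference 5.09 ± 0.24, limma adjusted p = 2.1e-11). All 3 Sca1-positive libraries lay far above all 4 Sca1-negative ones, in which the gene was low but not at 0. Pdgfra, which encodes the PDGF receptor that defines the progenitors, stood at 116, 102 and 84.4 FPKM in Sca1-positive and 7.15, 6.88, 6.83 and 7.93 FPKM in Sca1-negative libraries (log2 difference 3.63 ± 0.20, limma adjusted p = 1.2e-10). Pax7, the transcription factor of satellite cells, was at 0.115, 0.0476 and 0.0502 FPKM in Sca1-positive and 34.8, 19.4, 8.91 and 9.75 FPKM in Sca1-negative libraries (log2 difference -3.96 ± 0.43, limma adjusted p = 5.5e-07). It was near 0 in every Sca1-positive library, and among the Sca1-negative libraries replicates 1 and 2 held more of it than replicates 3 and 4.

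**Figure D1:**
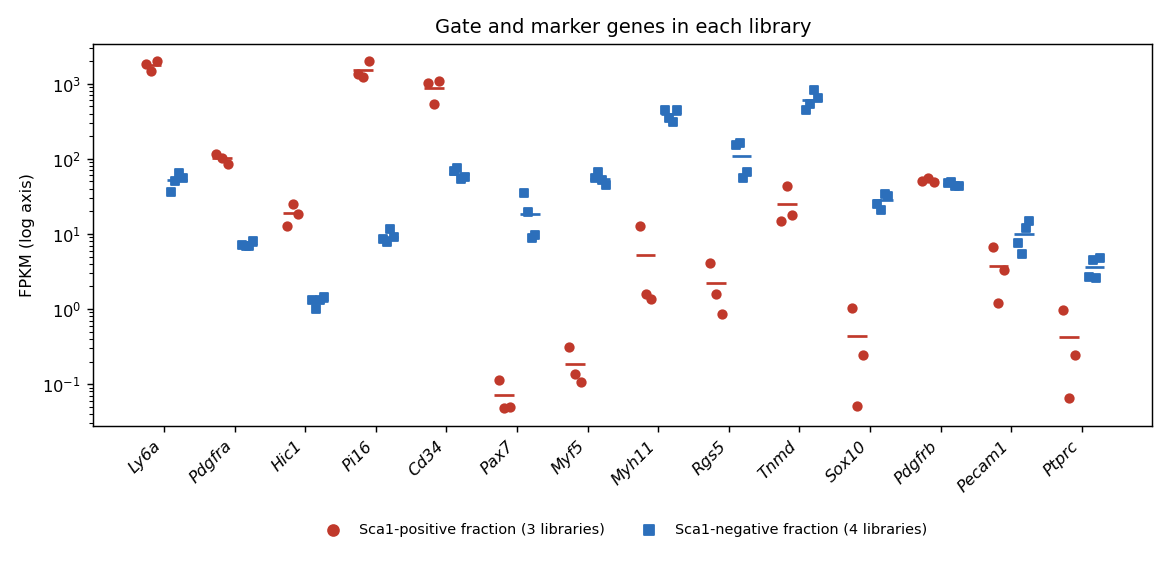
Levels (FPKM, log axis) of genes that mark the cell types, with 1 point per library and a horizontal line at each group's mean, the Sca1-positive libraries (n = 3) left of the Sca1-negative libraries (n = 4). Progenitor genes such as Ly6a and Pdgfra sit higher in the Sca1-positive libraries, and Pax7, Myh11, Tnmd and Sox10 sit lower in them, with no overlap between the groups.

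A gene was called when its limma adjusted p was under 0.05 over the 14043 tested genes, and a log2 difference is the mean of log2(FPKM + 1) in the Sca1-positive libraries minus that in the Sca1-negative libraries, a scale that understates the change of genes at low levels. Errors of mean FPKM are standard deviations (SD, n = 3 Sca1-positive and 4 Sca1-negative libraries). The 2 fractions differed in 7660 genes, 54.5% of those tested. Of these, 3146 (22.4% of tested genes) were higher and 4514 (32.1%) lower in the Sca1-positive libraries. Among the called genes 1804 were higher and 2136 lower by at least 2-fold, 160 higher and 296 lower by at least 8-fold, and 18 higher and 47 lower by at least 32-fold. The median log2 difference over all tested genes was -0.16, and each list of genes is read against that median and those shares. The libraries of the fractions did not overlap in 54.7% of tested genes.

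**Figure D2:**
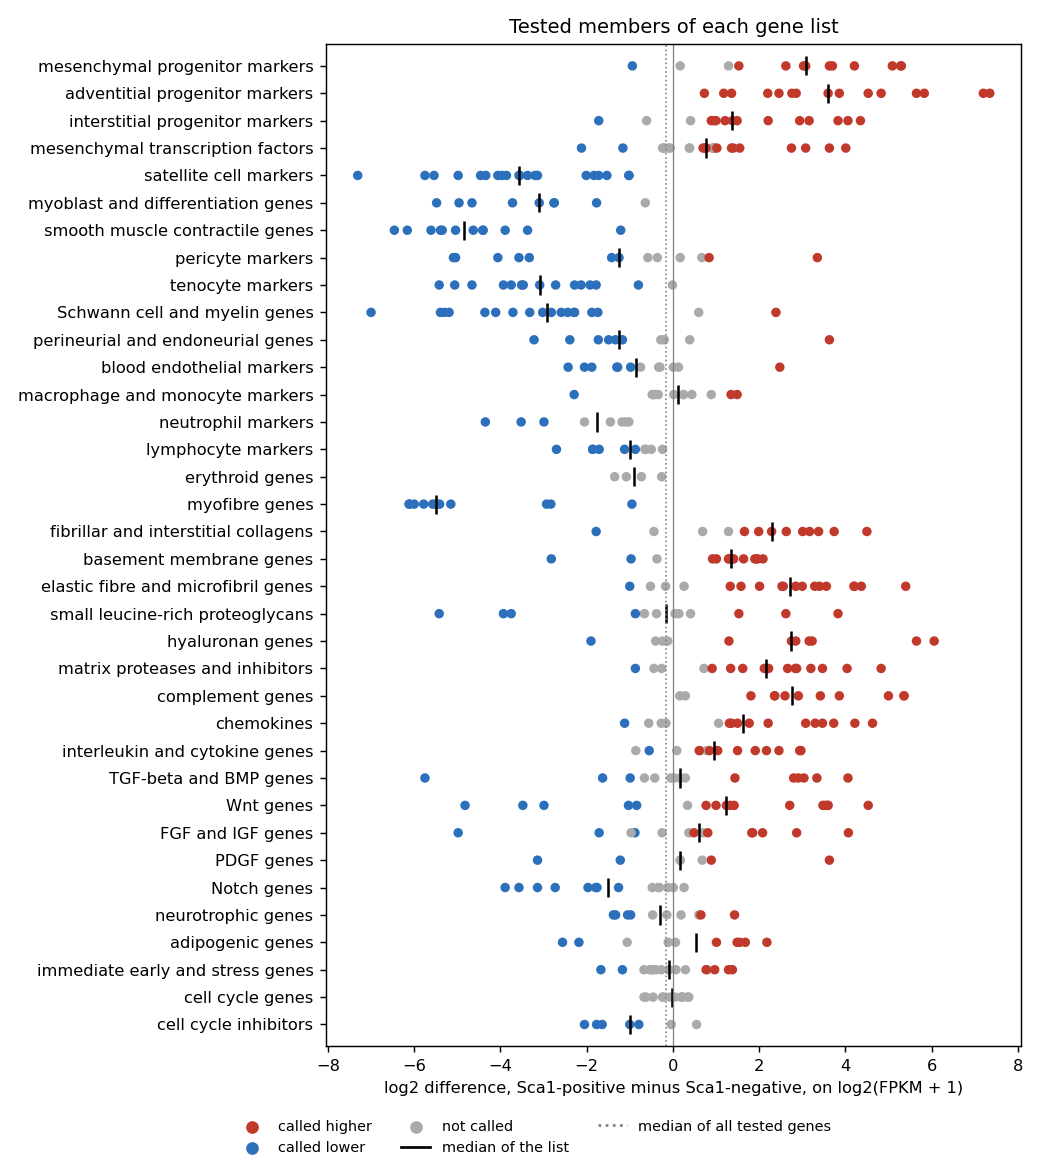
Log2 difference of each tested member (points) of the gene lists, Sca1-positive minus Sca1-negative, with the median of each list as a bar and the median of all tested genes (-0.16) as a dotted line. Red points were called higher, blue points lower and grey points were not called. Adventitial, mesenchymal, complement and elastic fibre genes lie to the higher side, and myofibre, smooth muscle, satellite cell and tendon genes to the lower side.

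Genes of the progenitors themselves were higher by large factors. Of 13 tested mesenchymal progenitor markers 10 were called higher and 1 lower, with a median log2 difference of 3.08. Ly6a, the gene of the sorted protein, is among the 10 and in that median, and the sort fixed its direction. Adventitial progenitor markers are genes known from the fibroblasts that sheathe vessels and lie in the outer connective tissue. All 15 of them were called higher (median 3.60). Clec3b (mm10, chromosome 9, 123150946 to 123157432), which encodes the secreted plasminogen-binding protein tetranectin, had the largest log2 difference of any tested gene, with 1478, 2171 and 2358 FPKM in Sca1-positive and 12.3, 14.8, 8.02 and 10.2 FPKM in Sca1-negative libraries (log2 difference 7.35 ± 0.43, limma adjusted p = 2.5e-10). Pi16 (mm10, chromosome 17, 29318882 to 29328902), a secreted peptidase inhibitor that marks adventitial fibroblasts, was at 1344, 1229 and 1970.5 FPKM in Sca1-positive and 8.46, 7.71, 11.7 and 9.05 FPKM in Sca1-negative libraries (log2 difference 7.20 ± 0.32, limma adjusted p = 9.0e-12). In both genes every Sca1-positive library was far above every Sca1-negative one. Dpp4, the surface dipeptidyl peptidase CD26 of the same cells, was at 64.2, 48.97 and 52.3 FPKM in Sca1-positive and 6.41, 4.56, 9.102 and 9.93 FPKM in Sca1-negative libraries (log2 difference 2.76 ± 0.25, limma adjusted p = 4.3e-08). Sfrp4, a secreted Wnt-binding protein, was at 295, 180.03 and 291 FPKM in Sca1-positive and 8.76, 11.6, 34.4 and 40.2 FPKM in Sca1-negative libraries (log2 difference 3.60 ± 0.43, limma adjusted p = 1.5e-06). Dpp4 and Sfrp4 kept a clear signal in the Sca1-negative libraries, unlike Wnt2, which encodes a Wnt ligand and was at 31.3, 16.6 and 36.4 FPKM in Sca1-positive and 0.138, 0.237, 0.146 and 0.282 FPKM in Sca1-negative libraries (log2 difference 4.53 ± 0.24, limma adjusted p = 6.5e-11). Cd55, a complement-inhibiting surface protein, averaged 139 ± 55.8 FPKM in Sca1-positive and 8.07 ± 1.21 FPKM in Sca1-negative libraries (log2 difference 3.86, limma adjusted p = 2.2e-10). Cd248, the surface glycoprotein endosialin, averaged 465 ± 99.2 FPKM in Sca1-positive and 7.34 ± 2.44 FPKM in Sca1-negative libraries (log2 difference 5.83, limma adjusted p = 1.1e-12). Ly6c1, a neighbour of Ly6a in the same gene family whose reads can be shared with the near-identical Ly6c2, averaged 905 ± 63.9 FPKM in Sca1-positive and 31.04 ± 4.55 FPKM in Sca1-negative libraries (log2 difference 4.83, limma adjusted p = 7.2e-08).

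Among the mesenchymal markers, Gsn, which encodes the actin-severing protein gelsolin in a cellular and a secreted form, was the most abundant, with 15581, 12148 and 17526 FPKM in Sca1-positive and 411, 403, 369 and 331 FPKM in Sca1-negative libraries (log2 difference 5.30 ± 0.36, limma adjusted p = 1.7e-09). Dpep1, a membrane dipeptidase, was at 266, 327 and 271 FPKM in Sca1-positive and 7.76, 5.84, 6.43 and 5.88 FPKM in Sca1-negative libraries (log2 difference 5.28 ± 0.33, limma adjusted p = 4.5e-10). Both separated the fractions without overlap, and Dpep1 was near the level of a few FPKM in each Sca1-negative library. Cd34, a sialomucin shared by progenitors, endothelium and satellite cells, was at 1009, 530.5 and 1068 FPKM in Sca1-positive and 68.5, 74.3, 53.8 and 56.9 FPKM in Sca1-negative libraries (log2 difference 3.70 ± 0.26, limma adjusted p = 2.4e-09). Mfap5, a microfibril protein, averaged 978 ± 243 FPKM in Sca1-positive and 51.3 ± 7.28 FPKM in Sca1-negative libraries (log2 difference 4.21, limma adjusted p = 1.0e-11). Hic1, a transcriptional repressor of quiescent mesenchymal cells, averaged 18.8 ± 6.22 FPKM in Sca1-positive and 1.27 ± 0.193 FPKM in Sca1-negative libraries (log2 difference 3.08, limma adjusted p = 2.0e-09). Nt5e, the ectonucleotidase CD73 that is used as a marker of cultured mesenchymal stromal cells, was the member called lower, with 1.46, 6.55 and 1.93 FPKM in Sca1-positive and 7.58, 7.05, 4.92 and 5.802 FPKM in Sca1-negative libraries (log2 difference -0.94 ± 0.32, limma adjusted p = 0.0198). That call was lost without Sca1-positive replicate 1 (limma adjusted p = 0.135) or replicate 3 (0.0986), and against Sca1-negative replicates 3 and 4 alone (0.126).

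Interstitial progenitor markers, which are known from the fibroblasts between the fibres, were also mostly higher, with 12 of 15 called higher, 1 lower and a median log2 difference of 1.38. Smoc2, a matricellular calcium-binding protein, was at 547, 313 and 647 FPKM in Sca1-positive and 61.8, 53.7, 44.1 and 52.7 FPKM in Sca1-negative libraries (log2 difference 3.16 ± 0.22, limma adjusted p = 1.9e-09). Gdf10, a secreted member of the TGF-β family, was at 147, 173 and 88.2 FPKM in Sca1-positive and 4.08, 4.71, 9.83 and 11.4 FPKM in Sca1-negative libraries (log2 difference 4.06 ± 0.33, limma adjusted p = 1.4e-08). Tnxb, the matrix glycoprotein tenascin X, was at 227, 266 and 266 FPKM in Sca1-positive and 16.6, 10.8, 10.8 and 8.58 FPKM in Sca1-negative libraries (log2 difference 4.35 ± 0.32, limma adjusted p = 4.6e-09). These 3 genes of fibroblasts were higher in every Sca1-positive library. Podn, the proteoglycan podocan, averaged 81.9 ± 12.3 FPKM in Sca1-positive and 4.999 ± 1.68 FPKM in Sca1-negative libraries (log2 difference 3.83, limma adjusted p = 3.4e-11). Penk, the precursor of enkephalin peptides, averaged 91.97 ± 12.95 FPKM in Sca1-positive and 12.4 ± 7.55 FPKM in Sca1-negative libraries (log2 difference 2.94, limma adjusted p = 6.8e-07). Hsd11b1, which regenerates active glucocorticoid, was close in both fractions and was not called, with 62.8 ± 11.8 FPKM in Sca1-positive and 50.5 ± 23.2 FPKM in Sca1-negative libraries (limma adjusted p = 0.383). Vcam1, an adhesion molecule of activated stroma that satellite cells also carry, was called lower, with 17.4, 22.7 and 10.96 FPKM in Sca1-positive and 59.1, 66.5, 57.4 and 43.8 FPKM in Sca1-negative libraries (log2 difference -1.72 ± 0.21, limma adjusted p = 2.5e-06).

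Transcription factors of limb and muscle mesenchyme divided. Of 22 tested, 12 were called higher, 2 lower and 8 were not called, with a median log2 difference of 0.76. Osr1 and Osr2, the odd-skipped factors of embryonic connective tissue, were among the most different. Osr1 was at 31.6, 44.7 and 26.8 FPKM in Sca1-positive and 0.557, 0.501, 1.54 and 2.57 FPKM in Sca1-negative libraries (log2 difference 4.01 ± 0.25, limma adjusted p = 5.8e-10). Osr2 was at 33.3, 28.4 and 36.2 FPKM in Sca1-positive and 1.24, 0.987, 2.53 and 2.398 FPKM in Sca1-negative libraries (log2 difference 3.63 ± 0.34, limma adjusted p = 8.9e-08). Prrx2, a paired-related homeobox factor of limb mesenchyme, averaged 43.5 ± 17.3 FPKM in Sca1-positive and 5.58 ± 2.38 FPKM in Sca1-negative libraries (log2 difference 2.75, limma adjusted p = 2.5e-07). These 3 factors had a low level in all 4 Sca1-negative libraries. The lower pair was Nr2f2, the orphan nuclear receptor COUP-TFII, and Foxf1, a forkhead factor of visceral mesenchyme. Nr2f2 was at 8.38, 6.28 and 6.01 FPKM in Sca1-positive and 27.3, 37.2, 32.99 and 35.1 FPKM in Sca1-negative libraries (log2 difference -2.12 ± 0.25, limma adjusted p = 1.5e-06). Foxf1 was at 0.654, 0.2303 and 0.545 FPKM in Sca1-positive and 2.64, 3.34, 1.29 and 2.16 FPKM in Sca1-negative libraries (log2 difference -1.16 ± 0.22, limma adjusted p = 2.7e-04). Pparg, the nuclear receptor that drives adipocyte formation, was not called, with 4.67 ± 1.42 FPKM in Sca1-positive and 5.07 ± 1.05 FPKM in Sca1-negative libraries (limma adjusted p = 0.692).

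Most collagen genes of the interstitial matrix were higher in the Sca1-positive libraries, and the exceptions included type I collagen. Of 13 fibrillar and interstitial collagens 9 were called higher, 1 lower and 3 were not called (median log2 difference 2.29), and 2 were lower without Sca1-positive replicate 2 or with sample weights. Col3a1, the type III fibrillar chain, was at 4227, 6868 and 3494 FPKM in Sca1-positive and 267, 549, 581 and 465 FPKM in Sca1-negative libraries (log2 difference 3.38 ± 0.31, limma adjusted p = 7.5e-08). Col14a1, a fibril-associated collagen, was at 158, 131 and 133 FPKM in Sca1-positive and 5.095, 6.44, 4.22 and 5.45 FPKM in Sca1-negative libraries (log2 difference 4.50 ± 0.17, limma adjusted p = 1.2e-12). Col5a1, a chain of the type V collagen that seeds fibrils, averaged 291 ± 132 FPKM in Sca1-positive and 30.02 ± 6.08 FPKM in Sca1-negative libraries (log2 difference 3.17, limma adjusted p = 6.6e-09). The related chain Col5a3 averaged 249.97 ± 5.73 FPKM in Sca1-positive and 19.1 ± 7.98 FPKM in Sca1-negative libraries (log2 difference 3.74, limma adjusted p = 1.6e-07). Col6a2, a chain of the microfibrillar type VI collagen, averaged 922 ± 120.2 FPKM in Sca1-positive and 120.2 ± 49.2 FPKM in Sca1-negative libraries (log2 difference 3.01, limma adjusted p = 1.5e-07). Type I collagen did not follow. Col1a1 was at 1388, 5124 and 1125 FPKM in Sca1-positive and 308, 342, 2518 and 1674 FPKM in Sca1-negative libraries (log2 difference 1.29 ± 0.78, limma adjusted p = 0.173). Col1a2 was at 2149, 4891 and 1740.5 FPKM in Sca1-positive and 840.4, 1151, 3053 and 2427 FPKM in Sca1-negative libraries (log2 difference 0.69 ± 0.47, limma adjusted p = 0.228). Neither was called, and both overlapped between the fractions, as Sca1-negative replicates 3 and 4 held more than replicates 1 and 2 and Sca1-positive replicate 2 held the most of all. Against Sca1-negative replicates 1 and 2 alone both were called higher (limma adjusted p = 0.0108 for Col1a1 and 0.0234 for Col1a2). Col12a1, a fibril-associated collagen of tendon and fascia, was the one called lower, with 10.6, 50.9 and 5.35 FPKM in Sca1-positive and 55.8, 47.7, 57.8 and 50.7 FPKM in Sca1-negative libraries (log2 difference -1.78 ± 0.52, limma adjusted p = 0.00724), and was not called without Sca1-positive replicate 3 (limma adjusted p = 0.0730). Sca1-positive replicate 2 held as much Col12a1 as the Sca1-negative libraries.

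Elastic fibre and microfibril genes showed 14 of 18 members higher, 1 lower and 3 not called (median log2 difference 2.70), and 2 were lower without Sca1-positive replicate 2. Fbn1, the main microfibril protein, was at 435, 369 and 277 FPKM in Sca1-positive and 37.5, 32.2, 23.99 and 25.2 FPKM in Sca1-negative libraries (log2 difference 3.56 ± 0.30, limma adjusted p = 2.3e-08). Eln, elastin itself, was at 362, 169 and 374 FPKM in Sca1-positive and 26.05, 28.3, 47.7 and 41.3 FPKM in Sca1-negative libraries (log2 difference 3.00 ± 0.29, limma adjusted p = 1.1e-07). Emilin2, an elastin-associated glycoprotein, averaged 147 ± 12.3 FPKM in Sca1-positive and 2.48 ± 0.152 FPKM in Sca1-negative libraries (log2 difference 5.40, limma adjusted p = 7.6e-13). Fbln2, a fibulin that links elastic fibres to other matrix, averaged 306 ± 26.8 FPKM in Sca1-positive and 15.7 ± 0.991 FPKM in Sca1-negative libraries (log2 difference 4.2, limma adjusted p = 3.1e-10). Efemp1, of the same family, averaged 366 ± 72.2 FPKM in Sca1-positive and 17.3 ± 6.08 FPKM in Sca1-negative libraries (log2 difference 4.37, limma adjusted p = 1.7e-09). Fbn2, the fibrillin of developing tissue, was the lower one at a low level, with 0.315, 3.84 and 0.402 FPKM in Sca1-positive and 2.604, 2.86, 3.58 and 3.65 FPKM in Sca1-negative libraries (log2 difference -1.0 ± 0.34, limma adjusted p = 0.0172). The call on Fbn2 was lost without Sca1-positive replicate 1 (limma adjusted p = 0.123) or replicate 3 (0.114), and against Sca1-negative replicates 1 and 2 alone (0.105) and under quantile normalization (0.109).

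Basement membrane, the sheet-like matrix that wraps fibres, vessels and nerves, divided by chain. Of 14 genes 11 were called higher, 2 lower and 1 was not called (median log2 difference 1.34). Nid1, the linker nidogen, was at 337, 331 and 240.2 FPKM in Sca1-positive and 67.1, 61.4, 78.5 and 71.5 FPKM in Sca1-negative libraries (log2 difference 2.09 ± 0.19, limma adjusted p = 5.0e-08). Lama4, the laminin α4 chain, averaged 87.5 ± 6.23 FPKM in Sca1-positive and 22.98 ± 8.34 FPKM in Sca1-negative libraries (log2 difference 1.95, limma adjusted p = 3.0e-04). Lama2, the laminin chain of the fibre's own sheath that is lost in a congenital muscular dystrophy, averaged 74.8 ± 10.7 FPKM in Sca1-positive and 30.5 ± 8.802 FPKM in Sca1-negative libraries (log2 difference 1.30, limma adjusted p = 7.9e-04). Hspg2, the heparan sulfate proteoglycan perlecan, averaged 88.1 ± 17.4 FPKM in Sca1-positive and 22.4 ± 6.45 FPKM in Sca1-negative libraries (log2 difference 1.96, limma adjusted p = 1.9e-04), and the type IV collagen chain Col4a1 averaged 268 ± 38.3 FPKM in Sca1-positive and 109 ± 13.5 FPKM in Sca1-negative libraries (log2 difference 1.29, limma adjusted p = 4.2e-04). Lama5, the laminin α5 chain of vessel walls and nerve sheaths, ran the other way, with 0.997, 0.192 and 0.166 FPKM in Sca1-positive and 12.7, 7.45, 7.16 and 9.25 FPKM in Sca1-negative libraries (log2 difference -2.82 ± 0.28, limma adjusted p = 1.6e-07). Its lowest Sca1-negative library was above every Sca1-positive one. Agrn, which encodes agrin, the organiser of the neuromuscular synapse, averaged 4.56 ± 0.6497 FPKM in Sca1-positive and 10.2 ± 3.47 FPKM in Sca1-negative libraries (log2 difference -0.97, limma adjusted p = 0.0273). It was not called without Sca1-positive replicate 2 (limma adjusted p = 0.0507) or replicate 3 (0.0916), or without Sca1-negative replicate 1 (0.0783) or replicate 2 (0.0644).

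The small leucine-rich proteoglycans, which bind collagen fibrils, showed no common direction, with 3 of 12 higher, 4 lower and 5 not called. Their median log2 difference was -0.16, equal to that of all genes, of which 22.4% were higher and 32.1% lower. Lum, lumican, was higher, with 804, 516 and 842 FPKM in Sca1-positive and 99.9, 119, 118 and 120.1 FPKM in Sca1-negative libraries (log2 difference 2.62 ± 0.27, limma adjusted p = 3.0e-07). Dcn, decorin, was also higher, with 5844, 5169 and 6818 FPKM in Sca1-positive and 1474, 1709, 2809.7 and 2469.7 FPKM in Sca1-negative libraries (log2 difference 1.53 ± 0.29, limma adjusted p = 2.5e-04). Fmod, fibromodulin, was lower, with 57.7, 81.7 and 52.1 FPKM in Sca1-positive and 842, 788, 1079 and 747 FPKM in Sca1-negative libraries (log2 difference -3.75 ± 0.31, limma adjusted p = 1.8e-08). Kera, keratocan, was lower too, with 4.88, 21.2 and 4.24 FPKM in Sca1-positive and 205, 232, 775 and 547 FPKM in Sca1-negative libraries (log2 difference -5.42 ± 0.56, limma adjusted p = 3.0e-07). Fmod, Kera and Chad also stand in the tendon list, and podocan in the list of interstitial markers. Bgn, biglycan, was not called, with 855 ± 343 FPKM in Sca1-positive and 633 ± 193 FPKM in Sca1-negative libraries (limma adjusted p = 0.239).

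Genes that build and bind hyaluronan, the large matrix sugar polymer, were higher in 7 of 11 tested members, lower in 1 and not called in 3 (median log2 difference 2.75). Cd44, the cell surface receptor for hyaluronan, outside the rule for named genes and chosen after its values were seen, was among those not called, with 21.3 ± 2.03 FPKM in Sca1-positive and 23.8 ± 6.37 FPKM in Sca1-negative libraries (log2 difference -0.12). Has1, a hyaluronan synthase of the plasma membrane, was at 103, 92.5 and 136 FPKM in Sca1-positive and 1.11, 1.51, 0.848 and 1.35 FPKM in Sca1-negative libraries (log2 difference 5.65 ± 0.19, limma adjusted p = 4.6e-13). Has2, the second synthase, was at 19.1, 19.6 and 17.1 FPKM in Sca1-positive and 1.65, 2.53, 1.33 and 2.24 FPKM in Sca1-negative libraries (log2 difference 2.75 ± 0.18, limma adjusted p = 8.7e-10). The third, Has3, was low in both fractions and was not called, with 0.2701 ± 0.06999 FPKM in Sca1-positive and 0.519 ± 0.265 FPKM in Sca1-negative libraries (limma adjusted p = 0.446). Ugdh, the enzyme that makes the UDP-glucuronate building block, was at 181, 168 and 239 FPKM in Sca1-positive and 22.7, 33.2, 26.3 and 23.3 FPKM in Sca1-negative libraries (log2 difference 2.85 ± 0.16, limma adjusted p = 1.2e-10). The synthases Has1 and Has2 and the precursor enzyme were thus higher. Ptx3, a pentraxin that crosslinks hyaluronan and recognises microbes, was at 196, 98.4 and 235 FPKM in Sca1-positive and 0.865, 2.71, 2.02 and 0.8596 FPKM in Sca1-negative libraries (log2 difference 6.06 ± 0.29, limma adjusted p = 1.8e-11). Tnfaip6, which modifies hyaluronan with protein chains, averaged 310.4 ± 88.1 FPKM in Sca1-positive and 34.6 ± 12.3 FPKM in Sca1-negative libraries (log2 difference 3.16, limma adjusted p = 1.1e-07). Vcan, the hyaluronan-binding proteoglycan versican, averaged 59.3 ± 5.42 FPKM in Sca1-positive and 5.51 ± 1.53 FPKM in Sca1-negative libraries (log2 difference 3.23, limma adjusted p = 1.4e-09). Tmem2, a cell surface hyaluronidase, was the member called lower, with 1.26, 3.37 and 0.258 FPKM in Sca1-positive and 8.995, 8.27, 6.51 and 7.07 FPKM in Sca1-negative libraries (log2 difference -1.90 ± 0.27, limma adjusted p = 1.4e-05).

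Matrix proteases and their partners were higher in 12 of 16 genes, lower in 1 and not called in 3 (median log2 difference 2.17), and 2 were lower without Sca1-positive replicate 1 or under quantile normalization. Mmp3, stromelysin, was at 129, 129 and 133 FPKM in Sca1-positive and 2.76, 8.001, 2.43 and 2.96 FPKM in Sca1-negative libraries (log2 difference 4.83 ± 0.39, limma adjusted p = 1.2e-08). Mmp2, a gelatinase, averaged 699 ± 38.8 FPKM in Sca1-positive and 161 ± 24.8 FPKM in Sca1-negative libraries (log2 difference 2.12, limma adjusted p = 3.1e-05). Mmp14, the membrane protease that activates it, averaged 249.98 ± 19.97 FPKM in Sca1-positive and 40.5 ± 15.3 FPKM in Sca1-negative libraries (log2 difference 2.66, limma adjusted p = 3.2e-05). Pcolce2, an enhancer of procollagen cleavage, averaged 254 ± 34.8 FPKM in Sca1-positive and 15.9 ± 7.57 FPKM in Sca1-negative libraries (log2 difference 4.04, limma adjusted p = 3.5e-09). Adamts2, the procollagen N-peptidase, averaged 91.4 ± 33.5 FPKM in Sca1-positive and 7.12 ± 1.41 FPKM in Sca1-negative libraries (log2 difference 3.47, limma adjusted p = 5.3e-09). Adamts1, a protease of versican and aggrecan, was lower, with 76.9, 59.4 and 59.6 FPKM in Sca1-positive and 142, 128, 103 and 108 FPKM in Sca1-negative libraries (log2 difference -0.87 ± 0.18, limma adjusted p = 6.3e-04).

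Complement genes and chemokines were mostly higher in the Sca1-positive libraries. Of 12 tested complement genes 10 were called higher and 2 were not called (median log2 difference 2.76). C3, the central component, was at 1089, 1149 and 848 FPKM in Sca1-positive and 20.6, 22.5, 28.05 and 25.1 FPKM in Sca1-negative libraries (log2 difference 5.36 ± 0.29, limma adjusted p = 7.8e-11). C4b, which shares reads with its near-identical copy C4a, was at 95.7, 168 and 77.02 FPKM in Sca1-positive and 2.77, 2.24, 1.005 and 0.979 FPKM in Sca1-negative libraries (log2 difference 5.36 ± 0.52, limma adjusted p = 1.1e-07). Cfb, factor B of the alternative pathway, was at 92.1, 129 and 95.4 FPKM in Sca1-positive and 2.56, 3.05, 1.599 and 2.11 FPKM in Sca1-negative libraries (log2 difference 5.00 ± 0.35, limma adjusted p = 1.8e-09). C1ra, a protease of the first component, averaged 266 ± 5.15 FPKM in Sca1-positive and 24.2 ± 3.34 FPKM in Sca1-negative libraries (log2 difference 3.42, limma adjusted p = 7.3e-11). C1s, its partner protease, averaged 395 ± 42.8 FPKM in Sca1-positive and 113 ± 18.4 FPKM in Sca1-negative libraries (log2 difference 1.81, limma adjusted p = 9.2e-08). The transcripts thus covered the classical and the alternative route. C7, of the membrane attack complex and outside the rule for named genes, was chosen after its values were seen because its Sca1-positive libraries differed widely, with 39.6, 324 and 6.95 FPKM in Sca1-positive and 8.61, 5.96, 4.0004 and 3.62 FPKM in Sca1-negative libraries (log2 difference 2.91 ± 0.84, limma adjusted p = 0.00713). Of 16 chemokines 11 were called higher, 1 lower and 4 were not called (median 1.63), and 2 were lower without Sca1-positive replicate 1, without Sca1-negative replicate 1 or at a pseudocount of 0.1. Ccl11, the eosinophil attractant eotaxin, was at 614, 292 and 584 FPKM in Sca1-positive and 32.6, 38.8, 60.5 and 62.6 FPKM in Sca1-negative libraries (log2 difference 3.30 ± 0.30, limma adjusted p = 4.9e-08). Ccl2, an attractant of monocytes, was at 116, 166 and 207 FPKM in Sca1-positive and 7.997, 18.8, 18.8 and 11.5 FPKM in Sca1-negative libraries (log2 difference 3.47 ± 0.41, limma adjusted p = 1.4e-06). Its relative Ccl7 was at 124, 144 and 227 FPKM in Sca1-positive and 3.49, 12.8, 7.65 and 2.26 FPKM in Sca1-negative libraries (log2 difference 4.63 ± 0.40, limma adjusted p = 3.1e-08). Ccl8 averaged 46.5 ± 16.1 FPKM in Sca1-positive and 1.56 ± 0.803 FPKM in Sca1-negative libraries (log2 difference 4.22, limma adjusted p = 7.7e-05). Cxcl13, which attracts B cells, averaged 36.4 ± 32.5 FPKM in Sca1-positive and 1.297 ± 0.636 FPKM in Sca1-negative libraries (log2 difference 3.73, limma adjusted p = 6.0e-07). Ccl6, a chemokine of myeloid cells, was called lower at 6.04, 0.357 and 1.44 FPKM in Sca1-positive and 3.18, 10.5, 3.68 and 5.66 FPKM in Sca1-negative libraries (limma adjusted p = 0.0275), a call lost without Sca1-positive replicate 2 (0.227) or replicate 3 (0.0915) and without Sca1-negative replicate 2 (0.0943) or replicate 4 (0.0535).

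**Figure D3:**
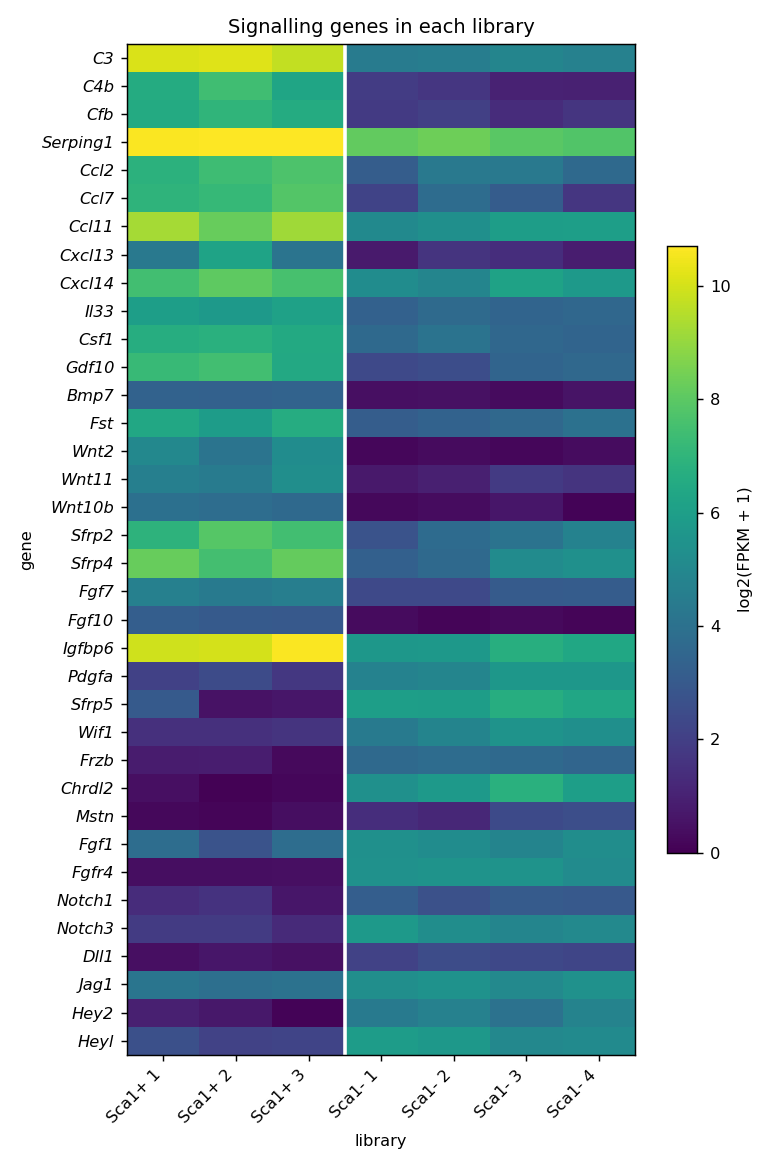
Heat map of log2(FPKM + 1) of signalling genes, with 1 column per library, the 3 Sca1-positive libraries left of the 4 Sca1-negative ones, and 1 row per gene; lighter means higher. Wnt2, Bmp7, Fgf10, Ccl7 and C3 sit higher in the Sca1-positive libraries, and Sfrp5, Chrdl2, Pdgfa and Hey2 lower.

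Cytokine genes were higher in 9 of 14 tested members, lower in 1 and not called in 4 (median log2 difference 0.94). The lower one, the receptor Lifr (limma adjusted p = 0.0394), lost its call without Sca1-positive replicate 2 (0.197) or replicate 3 (0.0684) and without Sca1-negative replicate 1 (0.116), replicate 2 (0.0836) or replicate 4 (0.0620). Csf1, the growth factor of macrophages, was at 101, 109 and 90.5 FPKM in Sca1-positive and 11.5, 15.8, 10.9 and 9.78 FPKM in Sca1-negative libraries (log2 difference 2.97 ± 0.17, limma adjusted p = 1.2e-10). Il33, an alarm cytokine kept in the nucleus, was at 63.4, 53.8 and 69.3 FPKM in Sca1-positive and 8.91, 12.1, 9.93 and 10.9 FPKM in Sca1-negative libraries (log2 difference 2.46 ± 0.16, limma adjusted p = 7.0e-10). Il18, activated by the inflammasome, was at 74.2, 43.4 and 90.1 FPKM in Sca1-positive and 5.66, 9.89, 8.14 and 7.98 FPKM in Sca1-negative libraries (log2 difference 2.94 ± 0.27, limma adjusted p = 5.8e-08). These 3 cytokines were higher in every Sca1-positive library. Il6 averaged 80.5 ± 27.2 FPKM in Sca1-positive and 27.6 ± 8.23 FPKM in Sca1-negative libraries (log2 difference 1.5, limma adjusted p = 3.0e-04), and its relative Lif averaged 6.05 ± 1.44 FPKM in Sca1-positive and 0.553 ± 0.107 FPKM in Sca1-negative libraries (log2 difference 2.17, limma adjusted p = 2.8e-08). Tslp, a cytokine that acts on dendritic cells, averaged 14.8 ± 6.73 FPKM in Sca1-positive and 2.94 ± 0.549 FPKM in Sca1-negative libraries (log2 difference 1.91, limma adjusted p = 3.6e-04).

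Secreted signals of the developmental pathways differed gene by gene. In the Wnt list 11 of 17 genes were higher, 5 lower and 1 was not called (median log2 difference 1.24). Ligands were in both directions. Wnt11 was at 23.7, 20.98 and 38.5 FPKM in Sca1-positive and 0.651, 0.91995, 2.52 and 2.02 FPKM in Sca1-negative libraries (log2 difference 3.53 ± 0.28, limma adjusted p = 8.8e-09). Wnt5a averaged 9.87 ± 1.56 FPKM in Sca1-positive and 3.08 ± 0.756 FPKM in Sca1-negative libraries (log2 difference 1.42, limma adjusted p = 1.3e-06). Wnt4 was lower at a low level, with 0.453 ± 0.303 FPKM in Sca1-positive and 1.61 ± 0.544 FPKM in Sca1-negative libraries (log2 difference -0.84, limma adjusted p = 7.1e-04), a call lost under quantile normalization (log2 difference -0.41, limma adjusted p = 0.0644). Wnt6 was likewise lower, with 0.2104 ± 0.254 FPKM in Sca1-positive and 1.48 ± 0.512 FPKM in Sca1-negative libraries (log2 difference -1.03, limma adjusted p = 2.2e-05). The secreted Wnt-binding antagonists also divided. Sfrp2 was higher, with 119.97, 234 and 173 FPKM in Sca1-positive and 5.63, 12.4, 15.9 and 25.7 FPKM in Sca1-negative libraries (log2 difference 3.59 ± 0.45, limma adjusted p = 2.8e-06). Sfrp5 was lower, with 7.22, 0.449 and 0.589 FPKM in Sca1-positive and 62.3, 60.4, 100.4 and 80.2 FPKM in Sca1-negative libraries (log2 difference -4.82 ± 0.43, limma adjusted p = 4.9e-08). Wif1 was at 1.81, 1.82 and 2.07 FPKM in Sca1-positive and 20.3, 27.1, 44.3 and 39.3 FPKM in Sca1-negative libraries (log2 difference -3.48 ± 0.35, limma adjusted p = 2.1e-07). Frzb averaged 0.611 ± 0.336 FPKM in Sca1-positive and 11.6 ± 1.103 FPKM in Sca1-negative libraries (log2 difference -2.99, limma adjusted p = 1.8e-09). The antagonists thus divided, with Sfrp2 and Sfrp4 higher in the Sca1-positive libraries and Sfrp5, Wif1 and Frzb higher in the Sca1-negative libraries.

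Of 16 tested TGF-β and BMP genes 6 were higher, 3 lower and 7 were not called (median log2 difference 0.18). Without Sca1-positive replicate 2, 5 were lower. In the main fit 22.4% of all tested genes were higher and 32.1% lower. Among the ligands, Bmp7 was at 9.27, 9.09 and 9.54 FPKM in Sca1-positive and 0.372, 0.385, 0.237 and 0.495 FPKM in Sca1-negative libraries (log2 difference 2.91 ± 0.18, limma adjusted p = 5.8e-10). Bmp5 was lower, with 15.9, 9.14 and 5.2998 FPKM in Sca1-positive and 22.8, 18.1, 14.96 and 22.7 FPKM in Sca1-negative libraries (log2 difference -0.99 ± 0.27, limma adjusted p = 0.00455). Bmp2 was not called, with 21.98 ± 9.15 FPKM in Sca1-positive and 18.3 ± 2.99 FPKM in Sca1-negative libraries (limma adjusted p = 0.641). Neither was Bmp4, with 22.5 ± 5.18 FPKM in Sca1-positive and 20.04 ± 6.27 FPKM in Sca1-negative libraries (limma adjusted p = 0.594). Bmp2 and Bmp4 are the closely related ligands with the broadest roles in bone and limb. Mstn, myostatin, the inhibitor of muscle growth made by muscle cells, averaged 0.206 ± 0.113 FPKM in Sca1-positive and 3.05 ± 1.88 FPKM in Sca1-negative libraries (log2 difference -1.63, limma adjusted p = 7.7e-05). The antagonists were split by fraction. Chrdl2, a chordin-like BMP antagonist, was at 0.345, 0.0479 and 0.1502 FPKM in Sca1-positive and 40.5, 54.2, 109 and 62.2 FPKM in Sca1-negative libraries (log2 difference -5.75 ± 0.26, limma adjusted p = 1.1e-11). Nbl1, a BMP antagonist of the DAN family, was at 348, 228 and 434 FPKM in Sca1-positive and 56.7, 74.9, 15.2 and 14.01 FPKM in Sca1-negative libraries (log2 difference 3.34 ± 0.71, limma adjusted p = 7.0e-04). In the Sca1-negative libraries Nbl1 was higher in replicates 1 and 2 than in replicates 3 and 4. Fstl1, a follistatin-like glycoprotein, averaged 1129.7 ± 171 FPKM in Sca1-positive and 139.6 ± 38.9 FPKM in Sca1-negative libraries (log2 difference 3.04, limma adjusted p = 2.9e-08).

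Among FGF and IGF genes 7 of 14 tested were higher, 3 lower and 4 not called (median log2 difference 0.59). Fgf10, a mesenchymal ligand that signals to epithelia in other organs, was at 8.095, 7.28 and 6.84 FPKM in Sca1-positive and 0.225, 0.09502, 0.194 and 0.0937 FPKM in Sca1-negative libraries (log2 difference 2.87 ± 0.12, limma adjusted p = 3.9e-12). Fgf7, of the same subfamily, averaged 22.6 ± 2.28 FPKM in Sca1-positive and 5.81 ± 1.89 FPKM in Sca1-negative libraries (log2 difference 1.83, limma adjusted p = 7.3e-06). Fgf1 was lower, with 12.999, 5.66 and 12.997 FPKM in Sca1-positive and 40.2, 35.7, 27.8 and 36.6 FPKM in Sca1-negative libraries (log2 difference -1.71 ± 0.24, limma adjusted p = 1.3e-05). The receptor Fgfr4, which satellite cells carry, was lower, with 0.317, 0.306 and 0.345 FPKM in Sca1-positive and 41.2, 44.5, 43.8 and 34.8 FPKM in Sca1-negative libraries (log2 difference -4.98 ± 0.19, limma adjusted p = 1.4e-12). Igfbp6, a binding protein that prefers IGF2, was at 982, 1021 and 1578 FPKM in Sca1-positive and 49.5, 51.04, 105 and 83.04 FPKM in Sca1-negative libraries (log2 difference 4.07 ± 0.28, limma adjusted p = 1.7e-09). Igfbp4 averaged 532 ± 98.2 FPKM in Sca1-positive and 147 ± 17.8 FPKM in Sca1-negative libraries (log2 difference 1.85, limma adjusted p = 5.4e-07). Igf2 itself was lower, with 14.9, 5.11 and 12.4 FPKM in Sca1-positive and 24.6, 30.4, 11.5 and 15.1 FPKM in Sca1-negative libraries (log2 difference -0.88 ± 0.34, limma adjusted p = 0.0344), a call lost without Sca1-positive replicate 2 (limma adjusted p = 0.258) and without Sca1-negative replicate 1 (0.0861) or replicate 2 (0.110). In the PDGF family 2 of 7 genes were higher, 2 lower and 3 not called (median log2 difference 0.17). The shares over all tested genes were 22.4% higher and 32.1% lower. Pdgfa, a ligand of the receptor that the Sca1-positive cells express, was at 3.18, 4.47 and 2.36 FPKM in Sca1-positive and 25.5, 28.2, 49.2 and 50.1 FPKM in Sca1-negative libraries (log2 difference -3.14 ± 0.33, limma adjusted p = 3.1e-07). Receptor and ligand thus ran in opposite directions between the fractions. Pdgfb, the ligand that recruits mural cells, averaged 0.966 ± 0.765 FPKM in Sca1-positive and 3.401 ± 0.445 FPKM in Sca1-negative libraries (log2 difference -1.22, limma adjusted p = 5.5e-04). Pdgfc, another ligand of PDGFRα, averaged 12.6 ± 1.4996 FPKM in Sca1-positive and 6.38 ± 1.17 FPKM in Sca1-negative libraries (log2 difference 0.89, limma adjusted p = 0.00190). Pdgfrb, the receptor used to mark mural cells, was at 50.6, 56.1 and 48.3 FPKM in Sca1-positive and 47.8, 49.2, 43.2 and 42.96 FPKM in Sca1-negative libraries and overlapped between the fractions (limma adjusted p = 0.310).

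Notch genes were lower in 8 of 14 members and not called in 6, with no member higher (median log2 difference -1.51, with 32.1% of all tested genes lower), and under quantile normalization 1 was higher. The receptor Notch3, of mural and satellite cells, was at 2.62, 2.61 and 1.41 FPKM in Sca1-positive and 52.2, 36.9, 28.6 and 32.03 FPKM in Sca1-negative libraries (log2 difference -3.57 ± 0.26, limma adjusted p = 3.8e-09). The target genes Hey1, Hey2 and Heyl, transcriptional repressors induced by Notch, were all lower in the Sca1-positive libraries. Hey2 was at 0.938, 0.605 and 0.0867 FPKM in Sca1-positive and 19.7, 24.8, 15.2 and 26.98 FPKM in Sca1-negative libraries (log2 difference -3.89 ± 0.33, limma adjusted p = 2.4e-08). Heyl was at 5.14, 3.31 and 3.59 FPKM in Sca1-positive and 59.2, 51.5, 31.2 and 34.3 FPKM in Sca1-negative libraries (log2 difference -3.14 ± 0.24, limma adjusted p = 7.1e-09). Hey1 averaged 2.41 ± 1.29 FPKM in Sca1-positive and 20.9 ± 3.96 FPKM in Sca1-negative libraries (log2 difference -2.73, limma adjusted p = 3.1e-07). Hes1 averaged 42.9 ± 9.06 FPKM in Sca1-positive and 171 ± 33.98 FPKM in Sca1-negative libraries (log2 difference -1.97, limma adjusted p = 1.9e-04). Notch1 averaged 1.36 ± 0.731 FPKM in Sca1-positive and 6.94 ± 1.2005 FPKM in Sca1-negative libraries (log2 difference -1.79, limma adjusted p = 3.1e-06). Notch2 was close in both fractions and was not called, with 13.4 ± 0.943 FPKM in Sca1-positive and 14.9 ± 3.297 FPKM in Sca1-negative libraries (limma adjusted p = 0.582).

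Neurotrophic genes were mixed, with 2 of 10 tested higher, 4 lower and 4 not called (median log2 difference -0.30). Under quantile normalization 4 were higher. These counts stand beside 22.4% of all tested genes higher and 32.1% lower in the main fit. Bdnf, a ligand that sustains sensory and motor neurons, averaged 0.204 ± 0.0308 FPKM in Sca1-positive and 1.39 ± 0.234 FPKM in Sca1-negative libraries (log2 difference -0.98, limma adjusted p = 8.1e-06). Ret, the signalling receptor for the GDNF family, was higher, with 13.01, 14.6 and 16.2 FPKM in Sca1-positive and 4.55, 4.15, 6.801 and 4.003 FPKM in Sca1-negative libraries (log2 difference 1.43 ± 0.17, limma adjusted p = 1.2e-06), while its co-receptor Gfra1 was lower, with 6.32, 6.01 and 3.23 FPKM in Sca1-positive and 16.7, 10.2, 9.41 and 10.6 FPKM in Sca1-negative libraries (log2 difference -1.05 ± 0.22, limma adjusted p = 5.6e-04). The neurotrophin receptors did not share a direction. Ntrk3 was lower and averaged 3.09 ± 1.34 FPKM in Sca1-positive and 9.46 ± 2.25 FPKM in Sca1-negative libraries (log2 difference -1.38, limma adjusted p = 1.4e-04). Ntrk2 was called higher (log2 difference 0.65, limma adjusted p = 0.00254), a call lost with the replicate number as a block (0.0647), and Ngfr was not called.

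Satellite cell genes were near 0 in the Sca1-positive libraries where they are specific to muscle. All 20 tested satellite cell markers were called lower (median log2 difference -3.56). Myf5 (mm10, chromosome 10, 107482908 to 107486134), a myogenic factor of satellite cells and early myoblasts, was at 0.315, 0.136 and 0.107 FPKM in Sca1-positive and 55.5, 66.6, 51.6 and 44.6 FPKM in Sca1-negative libraries (log2 difference -5.54 ± 0.19, limma adjusted p = 5.9e-13). Chodl (mm10, chromosome 16, 78930948 to 78951728), the membrane lectin chondrolectin, had the lowest log2 difference of any tested gene, with 2.25, 0.826 and 0.781 FPKM in Sca1-positive and 351, 424, 364 and 266 FPKM in Sca1-negative libraries (log2 difference -7.31 ± 0.21, limma adjusted p = 1.0e-13). Calcr, the calcitonin receptor of quiescent satellite cells, was at 0.102, 0.0197 and 0.001 FPKM in Sca1-positive and 26.1, 31.1, 16.3 and 17.1 FPKM in Sca1-negative libraries (log2 difference -4.46 ± 0.22, limma adjusted p = 4.1e-11). All 3 genes were near 0 in the Sca1-positive libraries. Among the Sca1-negative libraries Myf5 and Calcr were higher in replicates 1 and 2 than in replicates 3 and 4, and Chodl did not divide that way. Of 9 myoblast and differentiation genes 8 were lower and 1 was not called (median -3.10). Myog, the factor that starts terminal differentiation, was at 0.0508, 0.987 and 0.001 FPKM in Sca1-positive and 23.05, 82.99, 35.9 and 33.1 FPKM in Sca1-negative libraries (log2 difference -4.96 ± 0.42, limma adjusted p = 2.0e-08). Tmem8c, the fusion protein myomaker, was at 0.001, 0.2704 and 0.001 FPKM in Sca1-positive and 4.33, 12.8, 5.27 and 5.28 FPKM in Sca1-negative libraries (log2 difference -2.76 ± 0.37, limma adjusted p = 6.6e-06). Chrna1, the α subunit of the muscle acetylcholine receptor, averaged 0.104 ± 0.0627 FPKM in Sca1-positive and 13.98 ± 4.71 FPKM in Sca1-negative libraries (log2 difference -3.72, limma adjusted p = 3.1e-10). Actc1, the cardiac α-actin that developing muscle also makes, averaged 1.13 ± 1.27 FPKM in Sca1-positive and 98.2 ± 59.2 FPKM in Sca1-negative libraries (log2 difference -5.48, limma adjusted p = 2.6e-08). The Sca1-negative libraries thus held transcripts of differentiation genes beside those of satellite cells. Myofibre genes were present in the same libraries, and which cells held the differentiation transcripts was not tested.

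Smooth muscle contractile genes had a lower median difference than the satellite cell, pericyte, tendon and nerve sheath lists. All 12 were called lower (median log2 difference -4.84). Myh11 (mm10, chromosome 16, 14194527 to 14291408), the smooth muscle myosin heavy chain, was at 12.8, 1.59 and 1.38 FPKM in Sca1-positive and 452, 352, 310.3 and 446 FPKM in Sca1-negative libraries (log2 difference -6.46 ± 0.50, limma adjusted p = 7.6e-09). Acta2, smooth muscle α-actin, was at 60.6, 49.5 and 9.81 FPKM in Sca1-positive and 1503, 1918, 1264 and 1671 FPKM in Sca1-negative libraries (log2 difference -5.61 ± 0.52, limma adjusted p = 7.2e-08). Pln, phospholamban, which restrains the calcium pump of the sarcoplasmic reticulum, was at 2.33, 0.0892 and 0.0887 FPKM in Sca1-positive and 109, 138, 72.97 and 146 FPKM in Sca1-negative libraries (log2 difference -6.16 ± 0.47, limma adjusted p = 5.9e-09). In each of these genes Sca1-positive replicate 1 was above replicates 2 and 3, and still far below every Sca1-negative library. Tagln, the actin-binding protein SM22, averaged 32.1 ± 24.01 FPKM in Sca1-positive and 933 ± 366 FPKM in Sca1-negative libraries (log2 difference -5.04, limma adjusted p = 5.1e-08). Mylk, myosin light chain kinase, averaged 2.32 ± 1.34 FPKM in Sca1-positive and 132 ± 19.8 FPKM in Sca1-negative libraries (log2 difference -5.39, limma adjusted p = 1.8e-10). Tpm2, β-tropomyosin, averaged 18.2 ± 11.2 FPKM in Sca1-positive and 764 ± 452 FPKM in Sca1-negative libraries (log2 difference -5.35, limma adjusted p = 7.1e-07).

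Many contractile genes are known to be driven by serum response factor, which binds a motif named the CArG box, so the promoter windows of these 12 genes were read for it, and 2 are shown as examples with and without an exact match. An exact match was CC, then 6 bases that are each A or T, then GG. The motif was searched on both strands, and as it equals its own reverse complement, a match counts once. In the RefSeq windows (GRCm38.p6, 250 bases before to 50 after the start) 1 of the 10 smooth muscle genes with a window held it, against 1.69% of 10281 tested genes with a window and 1.63% of all 32851 windows. The match was in Myl9, the regulatory myosin light chain, 161 bases before the start, and Acta2 had no exact match. With 1 of the 6 middle bases free, a pattern chosen after the data were seen, 2 of the 10 genes held a match, against 10.76% of the tested genes and 9.98% of all windows. Acta2 then held ccctatatgg at 84 and ccttgtttgg at 34 bases before its start, and Myl9 held ccttgtaagg at 99 bases before its start beside the exact match. Tagln and Myh11 have no window in the table. Printed are the 250 bases before each start on the gene's strand, 5′ to 3′, with the exact match in capitals, for Myl9 at chr2:156775214-156775463 (plus strand) and for Acta2 at chr19:34255374-34255623 (minus strand). Myl9, outside the rule for named genes, was at 104, 51.5 and 63.9 FPKM in Sca1-positive and 1033, 1205, 865 and 1137 FPKM in Sca1-negative libraries (log2 difference -3.89 ± 0.36, limma adjusted p = 6.5e-08).
Myl9: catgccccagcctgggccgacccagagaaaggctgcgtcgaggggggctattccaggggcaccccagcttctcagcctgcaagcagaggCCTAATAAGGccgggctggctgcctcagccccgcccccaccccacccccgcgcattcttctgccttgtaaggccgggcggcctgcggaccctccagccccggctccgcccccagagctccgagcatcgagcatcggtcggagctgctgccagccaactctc
Acta2: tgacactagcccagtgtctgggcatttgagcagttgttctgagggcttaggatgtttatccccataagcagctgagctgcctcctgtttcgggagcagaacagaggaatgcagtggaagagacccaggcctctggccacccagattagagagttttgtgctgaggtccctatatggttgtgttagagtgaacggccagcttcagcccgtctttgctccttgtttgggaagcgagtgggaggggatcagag

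Pericyte markers did not move as one. Of 13, 7 were called lower, 2 higher and 4 were not called (median log2 difference -1.25). Rgs5, a regulator of G protein signalling in pericytes, was at 4.16, 1.58 and 0.8697 FPKM in Sca1-positive and 154, 163, 56.02 and 66.1 FPKM in Sca1-negative libraries (log2 difference -5.09 ± 0.43, limma adjusted p = 2.5e-08). Mcam, the adhesion molecule CD146, was at 5.68, 0.8597 and 0.679 FPKM in Sca1-positive and 136, 151, 52.03 and 59.5 FPKM in Sca1-negative libraries (log2 difference -5.04 ± 0.49, limma adjusted p = 1.4e-07). Cox4i2, a respiratory subunit found in pericytes and lung, averaged 0.619 ± 0.973 FPKM in Sca1-positive and 23.9 ± 7.46 FPKM in Sca1-negative libraries (log2 difference -4.06, limma adjusted p = 2.1e-08). Kcnj8, a potassium channel subunit, averaged 7.69 ± 3.05 FPKM in Sca1-positive and 19.2 ± 5.58 FPKM in Sca1-negative libraries (log2 difference -1.25, limma adjusted p = 0.00188). Against these, Anpep, the aminopeptidase CD13, was higher, with 114, 100.4 and 106 FPKM in Sca1-positive and 8.32, 10.5, 10.6 and 8.995 FPKM in Sca1-negative libraries (log2 difference 3.35 ± 0.12, limma adjusted p = 9.5e-13), and so was the metalloreductase Steap4, with 87.1, 114 and 63.2 FPKM in Sca1-positive and 44.95, 53.3, 45.2 and 45.9 FPKM in Sca1-negative libraries (log2 difference 0.84 ± 0.16, limma adjusted p = 3.0e-04). CD13 is also known from fibroblasts. Within the Sca1-negative fraction the summed pericyte markers took 0.183%, 0.158%, 0.0764% and 0.0855% of the summed FPKM in replicates 1 to 4.

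Tendon genes were lower in 14 of 15 members, with 1 not called and none higher (median log2 difference -3.09). Scx, scleraxis, the transcription factor of tendon, was at 2.05, 7.46 and 0.832 FPKM in Sca1-positive and 16.1, 16.7, 101 and 81.3 FPKM in Sca1-negative libraries (log2 difference -3.47 ± 0.70, limma adjusted p = 4.3e-04). Tnmd (mm10, chromosome X, 133851008 to 133865578), the membrane protein tenomodulin, was at 14.8, 43.3 and 17.8 FPKM in Sca1-positive and 443, 539, 813 and 641 FPKM in Sca1-negative libraries (log2 difference -4.66 ± 0.38, limma adjusted p = 1.4e-08). Sca1-positive replicate 2 held more of both genes than replicates 1 and 3. Mkx, the homeobox factor mohawk, averaged 1.34 ± 1.07 FPKM in Sca1-positive and 18.4 ± 5.84 FPKM in Sca1-negative libraries (log2 difference -3.09, limma adjusted p = 2.5e-07). Chad, the cartilage and tendon protein chondroadherin, averaged 19.9 ± 5.09 FPKM in Sca1-positive and 358 ± 204 FPKM in Sca1-negative libraries (log2 difference -3.93, limma adjusted p = 2.1e-07). Col22a1, a collagen of the muscle-tendon junction, was at 0.783, 0.394 and 0.139 FPKM in Sca1-positive and 59.95, 50.8, 41.2 and 35.7 FPKM in Sca1-negative libraries (log2 difference -5.06 ± 0.28, limma adjusted p = 1.3e-10). Tendon genes took 0.0779%, 0.215% and 0.0498% of the summed FPKM in Sca1-positive replicates 1 to 3, against 0.902%, 0.746%, 1.20% and 0.955% in Sca1-negative replicates 1 to 4.

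Genes of the nerve sheath were lower, with exceptions. Of 18 tested Schwann cell and myelin genes 16 were lower, 1 higher and 1 was not called (median log2 difference -2.92), and without Sca1-positive replicate 2, under quantile normalization or with sample weights, 2 were higher. Sox10 (mm10, chromosome 15, 79154913 to 79164490), the transcription factor of all Schwann cells, was at 1.03, 0.0511 and 0.242 FPKM in Sca1-positive and 24.9, 20.9, 33.5 and 32.1 FPKM in Sca1-negative libraries (log2 difference -4.36 ± 0.22, limma adjusted p = 3.9e-11). Sox10 was higher in Sca1-positive replicate 1 than in replicates 2 and 3, and still far below every Sca1-negative library. Mbp, myelin basic protein, averaged 15.1 ± 19.7 FPKM in Sca1-positive and 347 ± 27.2 FPKM in Sca1-negative libraries (log2 difference -5.19, limma adjusted p = 7.2e-08). Kcna1, a potassium channel subunit of axons and some glia, averaged 0.622 ± 0.895 FPKM in Sca1-positive and 58.1 ± 10.5 FPKM in Sca1-negative libraries (log2 difference -5.30, limma adjusted p = 8.6e-12). Scn7a, an atypical sodium channel subunit found in glia and other non-neuronal cells, was the member called higher, with 19.7, 28.3 and 17.7 FPKM in Sca1-positive and 3.76, 4.59, 2.16 and 2.94 FPKM in Sca1-negative libraries (log2 difference 2.39 ± 0.23, limma adjusted p = 1.1e-07). Of 10 perineurial and endoneurial genes 6 were lower, 1 (Osr2, above) higher and 3 were not called (median -1.25), and without Sca1-negative replicate 3, or against replicates 1 and 2 alone, 2 were higher. Cldn1, the tight junction protein of the perineurium, was at 3.704, 0.551 and 1.14 FPKM in Sca1-positive and 22.3, 25.1, 22.1 and 19.99 FPKM in Sca1-negative libraries (log2 difference -3.22 ± 0.28, limma adjusted p = 3.9e-08). Etv1, an ETS factor, averaged 1.697 ± 0.676 FPKM in Sca1-positive and 13.1 ± 3.07 FPKM in Sca1-negative libraries (log2 difference -2.39, limma adjusted p = 9.3e-08). Itgb4, the integrin β4 subunit, averaged 0.723 ± 0.499 FPKM in Sca1-positive and 4.74 ± 1.54 FPKM in Sca1-negative libraries (log2 difference -1.73, limma adjusted p = 1.5e-05). Slc2a1, the glucose transporter GLUT1 of the perineurial barrier, was not called, with 9.03 ± 1.43 FPKM in Sca1-positive and 11.1 ± 1.05 FPKM in Sca1-negative libraries (limma adjusted p = 0.219).

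Endothelial and blood-derived cells belong to the lineage-positive fraction, and most of their genes were low on both sides. Of 12 blood endothelial markers 6 were lower, 1 higher and 5 not called (median log2 difference -0.87). Cdh5, the endothelial cadherin, was at 5.83, 1.14 and 1.57 FPKM in Sca1-positive and 12.6, 7.82, 15.7 and 17.2 FPKM in Sca1-negative libraries (log2 difference -2.05 ± 0.37, limma adjusted p = 1.6e-04). Esam, a junction protein of endothelium and platelets, averaged 3.93 ± 3.62 FPKM in Sca1-positive and 25.1 ± 15.6 FPKM in Sca1-negative libraries (log2 difference -2.43, limma adjusted p = 0.00173). Tek, the angiopoietin receptor TIE2, went against its list, with 52.1, 37.6 and 41.5 FPKM in Sca1-positive and 8.27, 7.504, 5.797 and 6.39 FPKM in Sca1-negative libraries (log2 difference 2.48 ± 0.28, limma adjusted p = 9.9e-07). Kdr, the main VEGF receptor, was not called, with 2.22 ± 1.93 FPKM in Sca1-positive and 2.52 ± 0.562 FPKM in Sca1-negative libraries (limma adjusted p = 0.571). Tek is best known as an endothelial gene. It stood above Cdh5 and Kdr in each Sca1-positive library on the same per-length scale, and which cells held its RNA was not tested. Lymphocyte markers were lower in 6 of 10 and not called in 4 (median -1.0), all under 10 FPKM on average. The B cell gene Cd79b averaged 0.216 ± 0.225 FPKM in Sca1-positive and 6.93 ± 1.53 FPKM in Sca1-negative libraries (log2 difference -2.70, limma adjusted p = 3.5e-05), and the pan-leukocyte gene Ptprc averaged 0.423 ± 0.472 FPKM in Sca1-positive and 3.61 ± 1.18 FPKM in Sca1-negative libraries (log2 difference -1.71, limma adjusted p = 2.1e-04).

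Most of the calls on myeloid markers named here were lost when 1 library was left out. Of 12 macrophage and monocyte markers 2 were higher, 1 lower and 9 not called (median log2 difference 0.13). The shares over all tested genes were 22.4% higher and 32.1% lower. C1qa, a component of C1q made by macrophages, was at 13.9, 0.494 and 1.98 FPKM in Sca1-positive and 0.384, 0.30002, 0.154 and 1.04 FPKM in Sca1-negative libraries (log2 difference 1.49 ± 0.51, limma adjusted p = 0.0193). Sca1-positive replicate 1 alone was high, and without it C1qa was not called (limma adjusted p = 0.191), nor was C1qb (0.273). Without that library 0 of the 12 were called higher and 4 lower, and without Sca1-negative replicate 1 or replicate 2, 1 was called higher. With sample weights 4 were called higher and 0 lower, and in a fit of the compared groups alone 0 were called. These are values of a few FPKM. Lyz2, the myeloid lysozyme, was at 41.97, 1.305 and 9.597 FPKM in Sca1-positive and 71.5, 92.5, 28.03 and 30.1 FPKM in Sca1-negative libraries (log2 difference -2.29 ± 0.71, limma adjusted p = 0.0111), and was not called without Sca1-positive replicate 2 (limma adjusted p = 0.112). Of 8 neutrophil markers 3 were lower and 5 not called (median -1.75), with 32.1% of all tested genes lower. S100a8, a calcium-binding protein of neutrophils, was at 25.2, 0.828 and 8.15 FPKM in Sca1-positive and 183, 218, 72.3 and 192 FPKM in Sca1-negative libraries (log2 difference -4.35 ± 1.31, limma adjusted p = 0.00909). Sca1-positive replicate 2 held the least of it, and without that library S100a8 was not called (limma adjusted p = 0.0645), nor was S100a9 (0.0939), which left 1 of the 8 lower. Retnlg, a resistin-like gene of neutrophils, was also called lower, with 0.874, 0.001 and 1.76 FPKM in Sca1-positive and 16.3, 21.5, 5.83 and 12.4 FPKM in Sca1-negative libraries (log2 difference -2.99 ± 0.77, limma adjusted p = 0.00309), and kept its call under every alternative. The count of neutrophil markers called lower was 5 at a pseudocount of 0.1 and 6 in a fit of the compared groups alone, where Ngp and Ltf passed (limma adjusted p = 0.0460 and 0.0406). None of the 4 tested erythroid genes was called by limma, and 0 had an unadjusted p under 0.05, while against Sca1-negative replicates 3 and 4 alone 1 was called lower. The adult β-globin gene, Beta-s in the table, was at 1061, 159.9 and 434 FPKM in Sca1-positive and 285, 301, 2413 and 6283 FPKM in Sca1-negative libraries (limma adjusted p = 0.355), with Sca1-positive replicate 1 and Sca1-negative replicates 3 and 4 high.

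Myofibre genes, which encode the contractile apparatus of the multinucleated fibres and its energy supply, were lower in all 12 members (median log2 difference -5.48). Acta1, skeletal α-actin, was at 55.9, 21.3 and 7.42 FPKM in Sca1-positive and 659, 398, 4486 and 4689 FPKM in Sca1-negative libraries (log2 difference -6.12 ± 0.91, limma adjusted p = 2.1e-05). Tnnt3, fast troponin T, was at 59.98, 28.5 and 17.2 FPKM in Sca1-positive and 1016, 822, 4665 and 6061 FPKM in Sca1-negative libraries (log2 difference -6.11 ± 0.71, limma adjusted p = 1.3e-06). Ckm, the muscle creatine kinase, averaged 10.4 ± 8.78 FPKM in Sca1-positive and 683 ± 641 FPKM in Sca1-negative libraries (log2 difference -5.50, limma adjusted p = 2.5e-05). Mb, myoglobin, averaged 5.27 ± 4.99 FPKM in Sca1-positive and 256 ± 117 FPKM in Sca1-negative libraries (log2 difference -5.57, limma adjusted p = 4.8e-08). Myofibre genes took 0.0727%, 0.0315% and 0.0144% of the summed FPKM in Sca1-positive replicates 1 to 3, against 1.29%, 0.816%, 4.47% and 5.70% in Sca1-negative replicates 1 to 4. The share was thus uneven on both sides and highest in Sca1-negative replicates 3 and 4. Its part in the other differences was not tested.

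**Figure D4:**
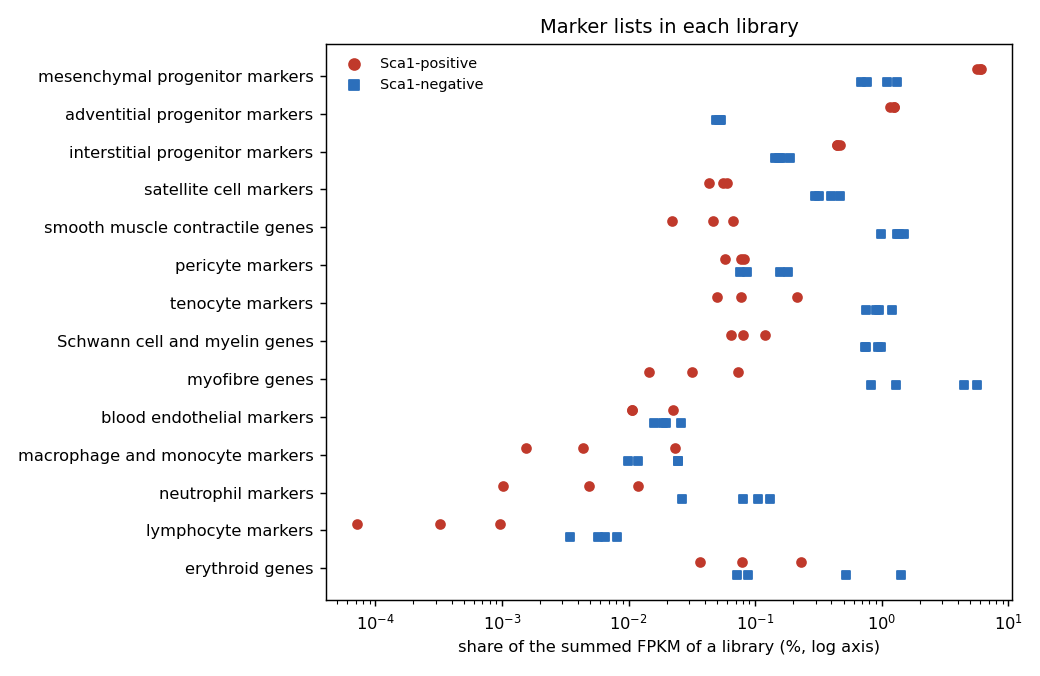
Share of the summed FPKM (percent, log axis) taken by each cell type's marker list, with 1 point per library, Sca1-positive (n = 3) and Sca1-negative (n = 4). Mesenchymal and adventitial markers take a larger share in the Sca1-positive libraries, and satellite cell, smooth muscle, tendon, Schwann cell and myofibre genes a larger share in the Sca1-negative libraries.

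The adipogenic and the immediate early lists each held genes called in both directions. Adipogenic genes were higher in 5 of 10 members, lower in 2 and not called in 3 (median log2 difference 0.54), and without Sca1-positive replicate 1, 3 were higher. Adipoq, the adipocyte hormone adiponectin, was at 10.2, 2.85 and 3.42 FPKM in Sca1-positive and 0.0829, 0.388, 0.133 and 0.513 FPKM in Sca1-negative libraries (log2 difference 2.18 ± 0.38, limma adjusted p = 1.1e-04). Plin2, a coat protein of lipid droplets, averaged 37.9 ± 3.24 FPKM in Sca1-positive and 11.7 ± 4.73 FPKM in Sca1-negative libraries (log2 difference 1.68, limma adjusted p = 1.5e-04). The fatty acid carriers ran the other way. Fabp4 was at 234, 51.8 and 82.04 FPKM in Sca1-positive and 277, 414, 582 and 656 FPKM in Sca1-negative libraries (log2 difference -2.18 ± 0.51, limma adjusted p = 0.00143). Cd36 was at 19.1, 6.31 and 4.08 FPKM in Sca1-positive and 61.4, 65.3, 38.9 and 48.6 FPKM in Sca1-negative libraries (log2 difference -2.56 ± 0.39, limma adjusted p = 2.4e-05). Fabp4 and Cd36 are also genes of small-vessel endothelium. Tissue dissociation is known to induce immediate early and stress genes. Beside 22.4% of all tested genes higher and 32.1% lower, 4 of these 17 were higher, 2 lower and 11 not called (median -0.10). Under quantile normalization 5 were lower, with Egr1, an early growth response factor, then called (log2 difference -1.03, limma adjusted p = 0.0302). Against Sca1-negative replicates 3 and 4 alone 2 were higher. Fos averaged 1315 ± 138 FPKM in Sca1-positive and 1876 ± 423 FPKM in Sca1-negative libraries (limma adjusted p = 0.0824) and was not called. Socs3, a feedback inhibitor of cytokine signalling, averaged 322 ± 5.62 FPKM in Sca1-positive and 134 ± 32.2 FPKM in Sca1-negative libraries (log2 difference 1.29, limma adjusted p = 1.8e-05). Btg2, an antiproliferative gene, averaged 101 ± 26.1 FPKM in Sca1-positive and 323 ± 73.02 FPKM in Sca1-negative libraries (log2 difference -1.67, limma adjusted p = 5.7e-06).

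No cell cycle gene of 12 was called by limma (median log2 difference -0.01), against 54.5% of all tested genes. Of the 12, 0 had an unadjusted p under 0.05. Without Sca1-negative replicate 2, or against replicates 3 and 4 alone, 1 was called higher, and under quantile normalization 1 was called lower. Mki67, the proliferation marker, averaged 3.02 ± 1.93 FPKM in Sca1-positive and 4.997 ± 1.59 FPKM in Sca1-negative libraries (limma adjusted p = 0.181). Top2a, topoisomerase IIα, averaged 5.34 ± 3.33 FPKM in Sca1-positive and 7.399 ± 3.85 FPKM in Sca1-negative libraries (0.353). Inhibitors of the cycle were lower in 5 of 7 and not called in 2 (median -1.0), with 32.1% of all tested genes lower. Against Sca1-negative replicates 3 and 4 alone, or with sample weights, 1 inhibitor was called higher. Rb1, the retinoblastoma protein that holds cells before S phase, was at 4.56, 2.76 and 3.38 FPKM in Sca1-positive and 18.6, 17.6, 16.1 and 18.7 FPKM in Sca1-negative libraries (log2 difference -2.05 ± 0.14, limma adjusted p = 1.2e-09). Cdkn1b, the inhibitor p27, was at 28.7, 25.3 and 28.4 FPKM in Sca1-positive and 71.2, 81.6, 101 and 99.7 FPKM in Sca1-negative libraries (log2 difference -1.64 ± 0.24, limma adjusted p = 1.5e-05). Cdkn1c, the inhibitor p57 of differentiating muscle, was at 22.7, 22.6 and 35.6 FPKM in Sca1-positive and 31.2, 68.3, 202 and 168 FPKM in Sca1-negative libraries (log2 difference -1.77 ± 0.61, limma adjusted p = 0.0205). The call on Cdkn1c was lost without Sca1-positive replicate 1 (limma adjusted p = 0.0609) or replicate 2 (0.0628) and without Sca1-negative replicate 3 (0.0691) or replicate 4 (0.0644). Against Sca1-negative replicates 1 and 2 alone the log2 difference of Cdkn1c was -0.79 (limma adjusted p = 0.321). Without Sca1-positive replicate 1 or Sca1-negative replicate 3, 3 of the 7 were lower. Cdkn1a, the p53 target p21, was not called, with 74.8 ± 19.6 FPKM in Sca1-positive and 77.7 ± 22.6 FPKM in Sca1-negative libraries (limma adjusted p = 0.897).

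Beyond these lists, the 12 largest differences in each direction held genes of less settled place in muscle stroma. Inmt, a methyltransferase of indole amines, was at 260.3, 308 and 208 FPKM in Sca1-positive and 4.198, 2.402, 6.25 and 11.6 FPKM in Sca1-negative libraries (log2 difference 5.34 ± 0.37, limma adjusted p = 1.7e-09). Mrgprg, a Mas-related G protein-coupled receptor, was at 117, 7.18 and 99.3 FPKM in Sca1-positive and 0.135, 0.251, 0.986 and 0.0414 FPKM in Sca1-negative libraries (log2 difference 5.13 ± 0.75, limma adjusted p = 1.6e-05), with Sca1-positive replicate 2 far under the other two. Gatm, the first enzyme of creatine synthesis, was at 12.3, 0.416 and 0.468 FPKM in Sca1-positive and 412, 447, 488 and 429 FPKM in Sca1-negative libraries (log2 difference -7.20 ± 0.53, limma adjusted p = 4.0e-09). Olfr78, an olfactory receptor expressed in vessel walls, was at 2.51, 0.265 and 0.417 FPKM in Sca1-positive and 141, 162, 64.8 and 131 FPKM in Sca1-negative libraries (log2 difference -6.01 ± 0.37, limma adjusted p = 3.5e-10). Pcp4l1, a small calmodulin-related protein, averaged 2.67 ± 3.12 FPKM in Sca1-positive and 173 ± 47.7 FPKM in Sca1-negative libraries (log2 difference -5.85, limma adjusted p = 4.6e-10). Plekhb1, a membrane-associated protein with a pleckstrin homology domain, averaged 3.53 ± 4.46 FPKM in Sca1-positive and 196 ± 14.4 FPKM in Sca1-negative libraries (log2 difference -5.89, limma adjusted p = 1.0e-09). Inmt separated the fractions in the progenitors' favour as widely as gelsolin did, and the 4 lower genes just named were high in all 4 Sca1-negative libraries.

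The Sca1-negative libraries were not alike. Deviations from their mean correlated across genes at 0.43 between replicates 1 and 2 and at 0.51 between replicates 3 and 4, and between the pairs at -0.78 to -0.68, a description of 4 libraries that share a mean. Satellite cell markers took 0.465%, 0.397%, 0.319% and 0.297% of the summed FPKM in replicates 1 to 4, and erythroid genes 0.0872%, 0.0721%, 0.526% and 1.43%. Nearly all of the erythroid share was the β-globin gene Beta-s, as the α-globin genes were listed more than once and left out. Smooth muscle genes took 1.51%, 1.37%, 0.985% and 1.33% and Schwann cell genes 0.984%, 0.750%, 0.936% and 0.744%. Satellite cell, pericyte and smooth muscle shares were thus higher in replicates 1 and 2, the last by little (1.37% in replicate 2 and 1.33% in replicate 4). Erythroid and myofibre shares were higher in replicates 3 and 4, and Schwann cell shares did not separate the pairs. Mesenchymal progenitor markers took 0.764%, 0.683%, 1.33% and 1.10% in replicates 1 to 4, and tendon genes 0.902%, 0.746%, 1.20% and 0.955%. Both were thus also higher in replicates 3 and 4. The labels name no batch. Against replicates 1 and 2 alone 2553 genes were called higher and 4195 lower in the Sca1-positive libraries, and against replicates 3 and 4 alone 3301 higher and 4055 lower.

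**Figure D5:**
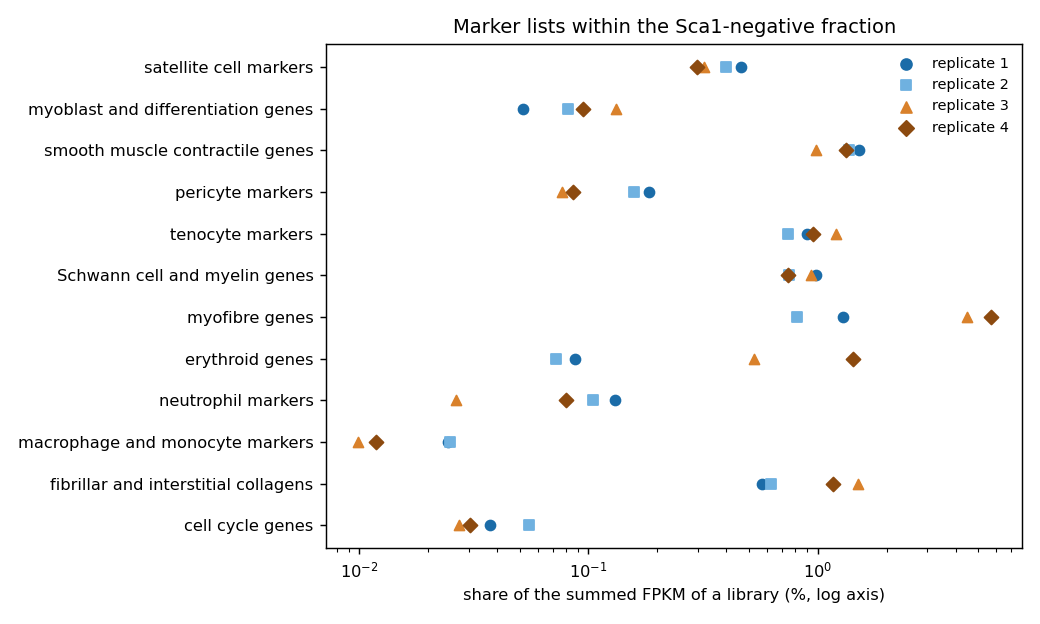
Share of the summed FPKM (percent, log axis) taken by each gene list in the 4 Sca1-negative libraries, with 1 point per replicate. Erythroid and myofibre genes take a larger share in replicates 3 and 4, and pericyte and satellite cell markers a larger share in replicates 1 and 2. Nearly all of the erythroid share is the β-globin gene Beta-s.

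The Sca1-positive libraries held like shares of the progenitor markers. Mesenchymal progenitor markers took 6.10%, 6.02% and 5.66% of the summed FPKM in replicates 1 to 3, and adventitial markers 1.16%, 1.25% and 1.26%. Gsn and Dcn together held most of the mesenchymal share, which also counts the gate gene Ly6a, so it says little of the less abundant members. Shares of matrix genes and of genes of other cells differed more. Fibrillar and interstitial collagens took 2.37%, 4.74% and 1.64%, highest in replicate 2. Macrophage markers took 0.0234%, 0.00154% and 0.00439% and myofibre genes 0.0727%, 0.0315% and 0.0144%, both highest in replicate 1, and tendon genes took 0.0779%, 0.215% and 0.0498%, highest in replicate 2. Within the 3 libraries replicate 2 also held the most Col1a1 and C7 and the least Mrgprg. With 3 libraries none of these can be assigned to more than the library it was seen in.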

How the data were processed

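Cells of mouse hindlimb muscle were sorted by flow cytometry and poly(A) RNA was sequenced as stranded libraries, per the labels' protocols. The authors deposited FPKM values per gene. The submitters' processing notes name Cufflinks, Bowtie2, TopHat2, bcl2fastq and the mm10 build, and the sources used here give no versions, annotation or strand setting. FPKM is scaled within a library, so a few abundant genes can move all others, and reads of near-identical copies can be split between them. Of 23846 rows, 311 held status words in every used column and 14 in some and were left out. A total of 192 symbols were listed more than once and were not named. A total of 4 columns of per-sample values that match no sample were not used. Depth was not stated.

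The 14043 genes that reached 1 FPKM in 3 or more of the 19 libraries were tested with limma 3.58.1 in R 4.3.3 on log2(FPKM + 1), in 1 fit of all 5 groups with 14 residual degrees of freedom, a variance trend, and p-values adjusted by Benjamini-Hochberg over all tested genes. The fit was tested on simulated data. Alternatives were other pseudocounts, filters and scalings, sample weights, no variance trend, a fit of the compared groups alone, the replicate number as a block, each replicate left out, and Sca1-negative replicates 1 and 2 or 3 and 4 alone. Named genes were the gate and marker genes, the 12 largest differences in each direction without overlap (mean 10 FPKM or more where higher), and of each of 36 gene lists the first 3, the 5 with the largest difference and any called against most of its list. Some items that this rule covers are not reported here. Shares are of the summed FPKM of a library. The members and lists were chosen with earlier results of these data known. No explanation was tested, and promoter windows are from RefSeq (GRCm38.p6).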

Additional observations from a re-analysis of the deposited data

Results flagged for a closer look

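Within the 4 Sca1-negative libraries, 1 of 36 list shares and 10 of 237 named genes had a library whose gap to the nearest other was a larger part of the group's range than Dixon's 95% critical value for 4 samples, which chance passes in about 1 of 20 groups. Neither count is above that rate, so the cases below are a description only. Groups of 3 were not tested in this way. Immediate early and stress genes took 2.30%, 1.78%, 1.81% and 1.81% of the summed FPKM in Sca1-negative replicates 1 to 4 and replicate 1 stood apart.

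Replicate 4 stood apart in 2 erythroid genes. Alas2, the first enzyme of heme synthesis in red cells, had 3.54, 3.48, 5.53 and 15.8 FPKM in the Sca1-negative libraries. Slc4a1, the anion exchanger of red cells, had 0.0309, 0.0318, 0.001 and 1.15 FPKM there.

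Replicate 2 stood apart in 5 genes. The mitotic genes Aurkb and Birc5 had 1.95, 4.26, 1.86 and 1.801 FPKM and 3.95, 17.1, 5.701 and 5.54 FPKM in the Sca1-negative libraries. Tmem8c, the fusion protein of myoblasts, had 4.33, 12.8, 5.27 and 5.28 FPKM. Mmp3 had 2.76, 8.001, 2.43 and 2.96 FPKM and Steap4 had 44.95, 53.3, 45.2 and 45.9 FPKM.

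Replicate 1 was high in Gfra1, with 16.7, 10.2, 9.41 and 10.6 FPKM in the Sca1-negative libraries, and low in Lum, with 99.9, 119, 118 and 120.1 FPKM. Replicate 3 was high in Tnnt1, the troponin T of slow fibres, with 34.4, 28.5, 129 and 40.1 FPKM.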

How the results depend on the processing

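The 3146 higher and 4514 lower genes were recomputed under 19 alternatives, and both counts stayed within 1.5 times in each. Leaving out each replicate in turn gave 2777 to 3271 higher and 3908 to 4395 lower genes. No gene called in both turned its direction under any of the 19. Median-of-ratios scaling gave 3590 higher and 3927 lower genes, and quantile normalization 3738 and 3763. Quantile normalization moved the median log2 difference of all genes to -0.01, against -0.16 as reported, and the other scaling moved it to -0.07, so small differences depend on the scaling. Same-numbered libraries of the 2 fractions deviated from their group means with correlations of 0.08, -0.03 and 0.18 across genes. Differently numbered libraries gave -0.26 to 0.19. With so few libraries that share a mean, these values cannot settle whether the numbers pair them, and the main fit did not pair them. With the replicate number as a block, at 2 residual degrees of freedom, 2411 genes were higher and 3569 lower, and 5765 were called in the same direction in both fits. Neutrophil markers called lower then numbered 6, neurotrophic genes called higher 1, and Mki67 was called lower (adjusted p = 0.0398). Of 237 named genes 202 were called, and 38 changed their call under some alternative. In a fit of the compared groups alone, 8 named genes lost their limma call and 2 gained one. Lost were Lyz2 (adjusted p = 0.0593), Nt5e (0.0640), Fbn2 (0.0794), Lifr (0.0893), C1qa (0.0917), Igf2 (0.106), C1qb (0.114) and Ccl6 (0.125). The cause was not tested. Depth limits genes near 0 in Sca1-positive replicate 3.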
